A study of Mus musculus with 6 samples.

Results

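The glutathione peroxidases are a small family of peroxide-reducing enzymes, and this account follows the transcripts of 6 of them, Gpx1, Gpx2, Gpx3, Gpx4, Gpx7 and Gpx8, in embryonic mouse skin. Their probe sets were those that the array annotation maps to exactly 1 of these symbols, which gave 7 of 45037 probe sets, 2 of them for Gpx4 and 1 for each other gene. The family was taken up because Gpx3 had a far higher signal in mutant skin in these same arrays. The values of Gpx3 are therefore a description with no test.

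Skin of embryonic day 16.5 was measured in 3 Tcfap2c mutant and 3 control samples, each on 1 Affymetrix array. Tcfap2c, now Tfap2c, encodes the transcription factor AP-2 gamma, which is made in the surface ectoderm and epidermis. The labels name neither the allele, nor the strain, nor whether a Cre driver was used, and they do not say whether a sample was 1 embryo or a pool, or whether littermates were paired. The titles and source names set the controls apart, although the description field of those 3 samples also mentions the mutation. Because a sample may be 1 embryo or a pool, p-values rest on the spread between these 6 samples. The limma test moderates that spread with the spread of all probe sets tested.

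Glutathione peroxidases such as Gpx1 and Gpx4 use reduced glutathione to turn hydrogen peroxide and lipid hydroperoxides into water and alcohols. Gpx1, Gpx2, Gpx3 and Gpx4 are selenoproteins, with selenocysteine in the active site, whereas Gpx7 and Gpx8 carry cysteine there and sit in the endoplasmic reticulum. Gpx1 is the abundant cytosolic enzyme, Gpx2 is known from gut epithelium, Gpx3 is secreted and is the main form of plasma, and Gpx4 reduces lipid hydroperoxides within membranes and protects cells from ferroptosis.

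Each probe set has a MAS5 signal, a linear measure of brightness that had been scaled to a trimmed mean of 500 on each array. Probe sets with a mean log2 signal above the median of all were kept, which left 22518 probe sets, among them 6 of the 7 of the family. The keratinocyte marker Krt5 (11821 to 22130) and the fibroblast marker Col1a1 (18905 to 22257) had high signals on all 6 arrays, so both epidermal and dermal transcripts were measured. Mutant sample 1 stood apart from the other 5 in its signal of decidual and smooth muscle genes. It also had the highest summed signal of macrophage, adipocyte and kidney markers, the last through 1 marker, Kap. In whole skin, a change in RNA per cell and a change in the number of cells that make it cannot be told apart.

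Upstream regions of 3 family members are shown, because the mutated gene encodes a factor that binds a known DNA motif. Each is the 250 bases before the RefSeq transcription start, 5′ to 3′ on the gene's strand, in build GRCm38.p6. Gpx3 lies at chr11:54902604-54902853, strand plus, Gpx1 at chr9:108338830-108339079, strand plus and Gpx7 at chr4:108406714-108406963, strand minus. Capitals mark matches on either strand to the AP-2 core GCCNNNGGC, the CCAAT box CCAAT or the GC box GGGCGG.
Gpx3: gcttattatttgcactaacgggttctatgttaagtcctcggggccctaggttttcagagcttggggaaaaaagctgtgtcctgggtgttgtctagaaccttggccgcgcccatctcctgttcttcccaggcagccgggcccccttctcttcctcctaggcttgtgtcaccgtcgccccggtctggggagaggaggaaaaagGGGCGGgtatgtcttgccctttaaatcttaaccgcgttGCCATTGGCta
Gpx1: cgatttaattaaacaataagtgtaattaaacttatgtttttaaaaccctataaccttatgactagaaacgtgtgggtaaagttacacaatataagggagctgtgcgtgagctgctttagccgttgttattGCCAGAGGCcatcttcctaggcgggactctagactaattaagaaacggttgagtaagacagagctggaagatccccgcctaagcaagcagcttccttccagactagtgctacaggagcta
Gpx7: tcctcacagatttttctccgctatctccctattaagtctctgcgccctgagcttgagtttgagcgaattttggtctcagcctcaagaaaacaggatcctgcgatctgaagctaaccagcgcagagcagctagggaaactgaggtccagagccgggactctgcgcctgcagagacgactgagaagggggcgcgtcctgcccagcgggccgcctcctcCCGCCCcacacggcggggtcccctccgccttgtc

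The Gpx3 region held 1 AP-2 core match, beginning 11 bases before the start, and it contains the region's only CCAAT match, read on the other strand. A GC box match began 49 bases before the start. The Gpx1 region held 1 AP-2 core match, 120 bases before its start, and the Gpx7 region held a GC box and no AP-2 core. The table of upstream regions held 9 windows for the 6 genes, 4 of them for Gpx4, and some Gpx4 windows overlap. An AP-2 core occurred in 4 of the 9, in Gpx1, Gpx3 and 2 Gpx4 windows, against 13.7% of 32841 windows of all genes. The CCAAT box occurred in 5 of the 9 (Gpx2, Gpx3 and Gpx4), against 33.9% of all windows, and the GC box in 5 (Gpx3, Gpx4 and Gpx7), against 32.7%. The share was thus above that of all windows for each of these 3 motifs, and none of them was tested. With 4 of the 9 windows from Gpx4, these are not shares of separate genes. Overlapping Gpx4 windows count some of the same CCAAT and GC box matches more than once. The GC content was 58.8% to 66.4% in the Gpx4 windows, 60.4% for Gpx7 and 55.2% for Gpx3. It was 42.0% to 49.2% for Gpx1, Gpx2 and Gpx8, and the median of all windows was 52.4%. Its part in these shares was not tested. The antioxidant response element TGACNNNGC, found in 10.2% of all windows, occurred in 0 of the 9. The hypoxia response element ACGTG, found in 16.6%, occurred in 2 (Gpx1 and Gpx8). The TATA box TATAAA, found in 12.4%, occurred in 0 of the 9. These are matches of letters, and binding was not measured in these data.

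Gpx3, the secreted enzyme, had a signal of 14373, 25436 and 23242 in mutant samples 1, 2 and 3. Its signal in control samples 1, 2 and 3 was 1596, 6498 and 3933. All 3 mutant samples lay above all 3 controls, which was so for 3.3% of all 22518 probe sets, and the lowest mutant sample was 2.21 times the highest control. The mutant mean was 21017 ± 5858 and the control mean 4009 ± 2452 (SD, n = 3 per group), a 5.24-fold difference. On the log2(signal + 24.48) scale the difference was 2.56 (SE 0.44), and 10 of the 22518 probe sets had a larger positive one.

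The order of the 6 samples for Gpx3 ran from control 1, the lowest, through controls 3 and 2 to mutant samples 1, 3 and 2. Controls spread further than mutants, with 4.07-fold between the lowest and highest control and 1.77-fold between the lowest and highest mutant sample. Mutant samples 2 and 3 stood close together, and mutant sample 1, with the decidual signal, was the lowest of the mutants. Without that sample the log2 difference was 2.81. The range over leaving out each sample in turn was 2.01, without control sample 1, to 3.01, without control sample 2.

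**Figure D1:**
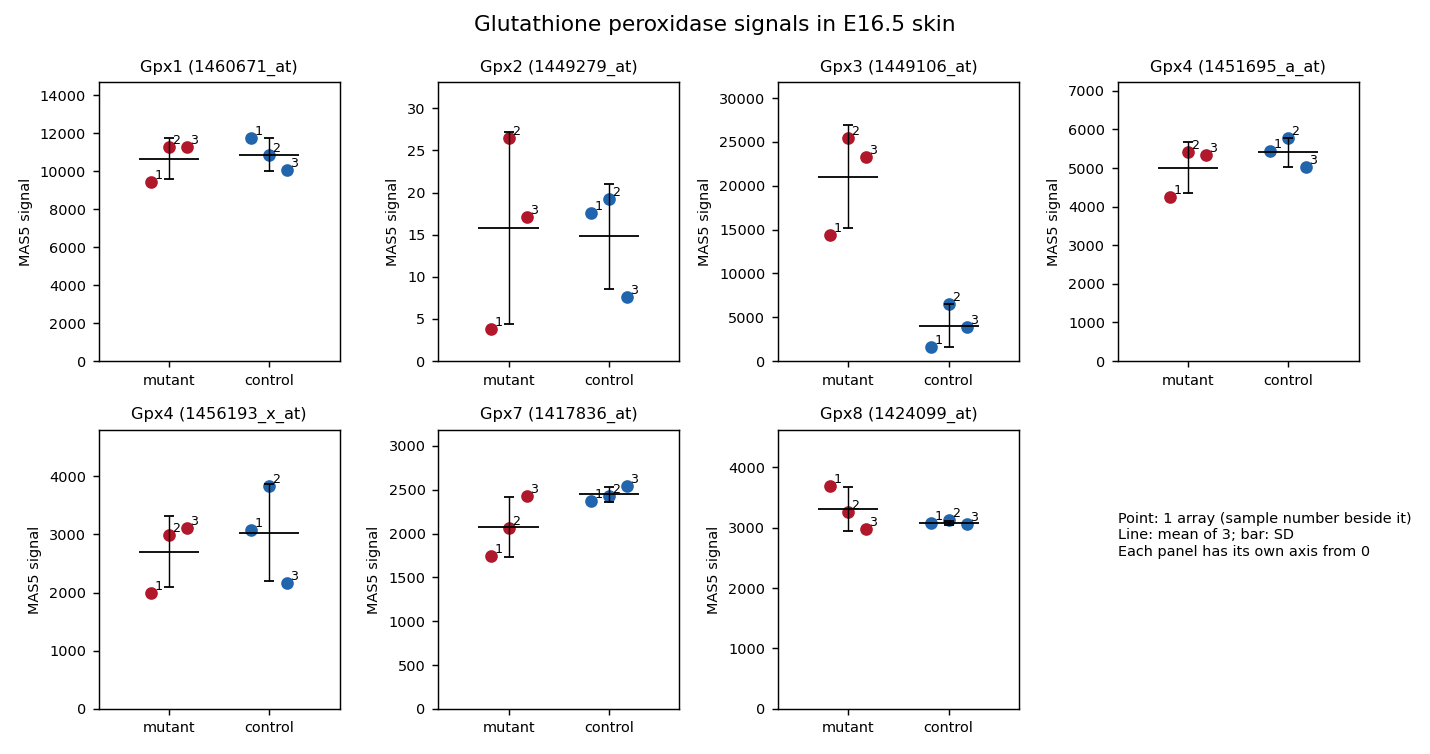
MAS5 signal (linear axis from 0, a scale of its own in each panel) of the 7 probe sets in each mutant (red) and control (blue) sample, with the sample number beside each point, the mean as a line and the SD as a bar (n = 3). Gpx3 is the panel in which the groups lie apart, with 14373 or more in mutant samples and 6498 or less in controls.

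No other family member passed the test of mutant against control. Of the 5 probe sets of Gpx1, Gpx4, Gpx7 and Gpx8, 0 passed an adjusted p of 0.05 in limma, and 0 had an unadjusted p under 0.05. Over all 22518 probe sets, 0.00444% passed the adjusted threshold (1 probe set, of Sftpd) and 3.42% had an unadjusted p under 0.05. The groups overlapped for each of the 5, while they did not overlap for 8.33% of all probe sets. A share of 0 of 5 cannot be told from these backgrounds.

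Gpx1, the cytosolic enzyme, had a signal of 9428, 11292 and 11267 in mutant samples 1, 2 and 3 and of 11741, 10846 and 10044 in control samples 1, 2 and 3. The groups covered nearly the same range, and the highest sample exceeded the lowest by 1.2-fold among mutants and 1.17-fold among controls. The log2 difference was -0.03 (95% interval -0.30 to 0.24, limma adjusted p = 1.0), so the interval reached no further than 0.30 in either direction.

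Gpx4, the membrane lipid peroxidase, was measured by 2 probe sets. The brighter gave 4257, 5426 and 5346 in mutant samples 1, 2 and 3 and 5438, 5776 and 5023 in control samples. Mutant sample 1 was the lowest of the 6, and mutant samples 2 and 3 lay within the range of the controls. The log2 difference was -0.12 (95% interval -0.42 to 0.19, limma adjusted p = 1.0). The dimmer probe set, whose name ends in _x_at and which may bind related transcripts, gave -0.15 (95% interval -0.69 to 0.38). RefSeq lists 2 Gpx4 pseudogenes, and signal from them cannot be told apart from Gpx4 here.

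The endoplasmic reticulum members had small differences of opposite sign. Gpx7, which passes oxidising power from peroxide to protein disulphide isomerases, had a signal of 1738, 2059 and 2427 in mutant samples 1, 2 and 3 and of 2375, 2429 and 2544 in controls. The controls lay close together, and mutant sample 3 reached into their range. Its log2 difference was -0.25 (95% interval -0.59 to 0.09, limma unadjusted p = 0.127, adjusted p = 1.0), and -0.13 without mutant sample 1. Gpx8, a membrane protein of the same compartment, had 3691, 3253 and 2978 in mutant samples and 3069, 3120 and 3058 in controls. Mutant sample 1 was the highest and mutant sample 3 the lowest of all 6, around a tight control group with an SD of 32.7. The log2 difference was 0.10 (95% interval -0.19 to 0.38, limma adjusted p = 1.0).

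**Figure D2:**
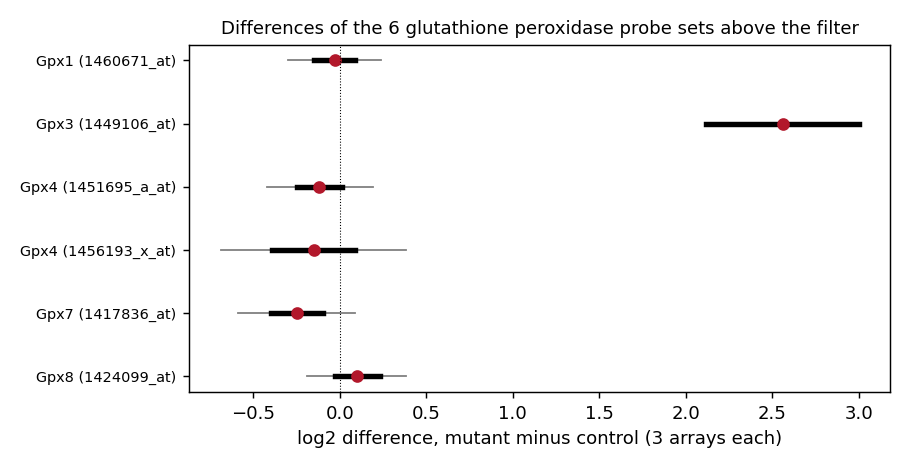
Log2 difference (mutant minus control, 3 arrays each) of the 6 probe sets of the family above the filter, with the SE as a thick bar and the 95% interval as a thin line, drawn for all but Gpx3, which was chosen for its difference. Gpx3 lies at 2.56, and the others between -0.25 and 0.10.

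Gpx2, the gut enzyme, had a signal of 3.822, 26.47 and 17.15 in mutant samples and 17.54, 19.23 and 7.651 in controls, and it did not pass the filter. As a measure of background, 9 probe sets of Y-linked genes had a median signal of 6.35 and a highest of 42.5 on the 3 arrays with high Xist. The Gpx2 signals lay within that range, so Gpx2 was not detectable above background on these arrays. The array also held probe sets for 2 family members outside the 6. Gpx5, the epididymal enzyme, had signals of 8.174 to 127.1 in mutant and 48.67 to 90.68 in control samples. Gpx6, known from olfactory epithelium, had 301.4 in mutant sample 1 and at most 32.41 in the other 5 samples. Mutant sample 1 was the sample with decidual signal, and the part of that signal in the Gpx6 value was not tested.

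The 5 genes whose values over the 6 arrays lay nearest to those of Gpx3 were Lce3f, Krtap13, 2310057N15Rik, Spink12 and 2300002M23Rik. Likeness was the root mean square distance between mean-centred log2 values over the 6 arrays, which was 0.264 for Lce3f, 0.405 for Krtap13, 0.424 for 2310057N15Rik, 0.434 for Spink12 and 0.483 for 2300002M23Rik. The centred Gpx3 values themselves had a root mean square of 1.43, and the median distance over all probe sets was 1.46. Lce3f encodes a late cornified envelope protein, Krtap13 a keratin-associated protein of the hair shaft, and Spink12 a Kazal-type serine protease inhibitor.

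Lce3f had a signal of 8601, 12658 and 12325 in mutant samples 1, 2 and 3 and of 622.6, 4701 and 1938 in controls. Krtap13 had 14394, 27631 and 26179 in mutant samples and 2393, 13115 and 7719 in controls. For both, mutant sample 1 was the lowest mutant and control sample 2 the highest control, as for Gpx3. Over all 5 genes, control samples stood in the same order as for Gpx3 in 5 of 5, mutant sample 1 was the lowest mutant in 5 of 5, and the groups did not overlap in 4 of 5. The exception was 2310057N15Rik, with 8364 in mutant sample 1 and 9177 in control sample 2. These genes were picked by this likeness, so their order and separation follow from the choice.

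**Figure D3:**
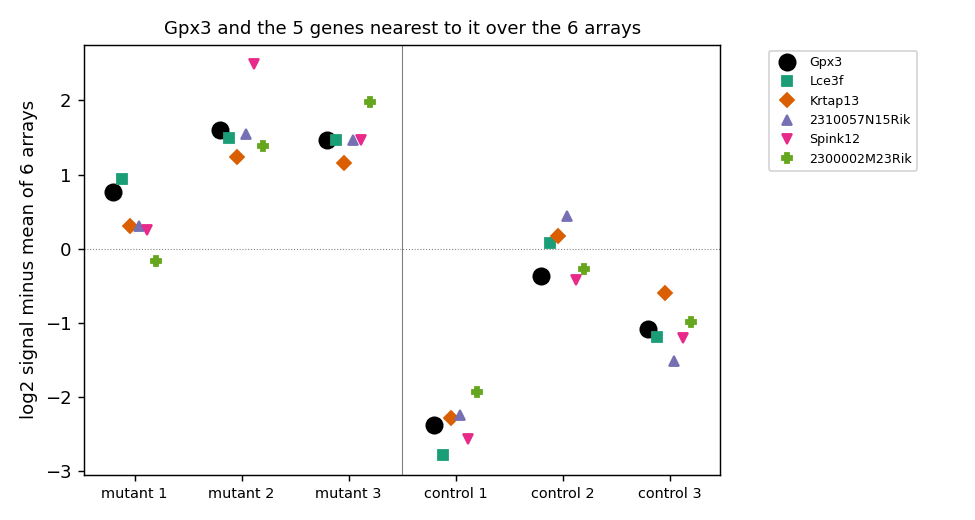
Log2 signal minus its mean over the 6 arrays, for Gpx3 (large black points) and the 5 nearest genes, in each mutant and control sample. Gpx3 runs from -2.38 in control sample 1 to 1.60 in mutant sample 2, and control sample 1 is the lowest for all 6 genes.

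The genes beside Gpx3 on its chromosome had differences between -0.20 and 0.07 where they were tested. Hint1, the nearest measured gene on the side of lower coordinates, differed by 0.07 on the log2 scale. Tnip1, the next gene on the other side, which encodes an inhibitor of NF-kappa-B signalling, differed by 0.0048, and Anxa6, an annexin, by -0.20. Each had a limma adjusted p of 1.0. For Anxa6 all mutant samples (2101 to 2258) lay below all controls (2374 to 2642), as for 5.03% of all probe sets. Lyrm7 had signals of 6.795 to 74.76 and did not pass the filter. Around all 6 family genes, 17 of 24 neighbours were tested, and 0 passed the adjusted threshold, against 0.00444% of all probe sets. An unadjusted limma p under 0.05 was found for 1 of the 17, Sptb near Gpx2 (0.66), against 3.42% of all probe sets. A share of 1 in 17 cannot be told from that background.

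Of the other genes of glutathione, selenium and peroxide metabolism, 119 were tested in 8 overlapping lists, and 0 passed an adjusted p of 0.05 in limma. An unadjusted p under 0.05 was found for 6 of them (5.04%, against 3.42% of all probe sets), 3 higher and 3 lower in mutant skin. The median log2 difference of the 119 was 0.03, beside -0.01 over all 11589 genes tested, and it was positive for 56.3% of the 119 and for 46.5% of all. The groups did not overlap for 6 of the 119 (5.04%), against 8.02% of all genes tested. The largest difference in either direction was 1.27, against 2.56 for Gpx3.

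Among 24 genes that make, recycle or break down glutathione, 10 had a positive and 14 a negative difference, with a median of -0.05. Ggct, gamma-glutamylcyclotransferase, which cleaves gamma-glutamyl amino acids, had 6008, 8709 and 5096 in mutant samples 1, 2 and 3 and 11769, 10438 and 11689 in controls. All mutant samples lay below all controls, as for 5.03% of all probe sets. The log2 difference was -0.81 (SE 0.19, limma adjusted p = 0.624), with a negative sign for 3 of 3 tested probe sets. With limma array weights Ggct passed the threshold, at -1.02 (adjusted p = 0.0169), as did 0.471% of all probe sets (106). Those weights were 0.257, 0.56 and 3.13 for mutant samples 1, 2 and 3 and 1.21 to 1.38 for controls, so the mutant value rested mostly on sample 3, which had the lowest Ggct signal. Without mutant sample 3 the unweighted difference was -0.64 (limma adjusted p = 0.995). Glo1, Lap3 and Pgd differed by -0.35, -0.21 and 0.22. Gclc and Gclm, the subunits of the rate-limiting enzyme of glutathione synthesis, differed by 0.04 and 0.13, and Gsr, glutathione reductase, by -0.21.

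Of 18 glutathione S-transferases, which join glutathione to electrophiles, 9 were positive and 9 negative. Gsta4, which acts on the lipid peroxidation product 4-hydroxynonenal, had 3240, 6418 and 4367 in mutant samples and 1895, 3390 and 975.5 in controls. Mutant sample 1 lay just below control sample 2, so the groups overlapped. The log2 difference was 1.27 (SE 0.41, limma adjusted p = 1.0). Gstt2, Hpgds and Gsto1 differed by 0.42, -0.33 and 0.26.

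The 18 other peroxide and superoxide enzymes had 12 positive and 6 negative differences, with a median of 0.10. Txnrd1, the selenoprotein that reduces thioredoxin, had 1930, 2598 and 1817 in mutant samples and 2687, 2704 and 3163 in controls. The groups did not overlap, and the log2 difference was -0.44 (SE 0.16, limma adjusted p = 1.0). Its substrate, thioredoxin (Txn1), differed by 0.15, and catalase, Sod1 and Sod2 by 0.12, 0.09 and 0.32. Msrb3 and Msrb2, which repair oxidised methionine, differed by 0.39 and 0.35.

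Genes for making selenoproteins and for handling selenium, Selenbp1 among them, had a median of 0.02 over 9, and the 17 other selenoproteins one of 0.02. Selenbp1, a selenium-binding protein that is no selenoprotein, had 1407, 1124 and 1152 in mutant samples and 818.4, 947.4 and 771.4 in controls, with no overlap. Its log2 difference was 0.52 (SE 0.15, limma adjusted p = 1.0), positive in 2 of 2 tested probe sets. Eefsec and Secisbp2, which bring selenocysteine to the ribosome, differed by -0.25 and 0.14, and Sephs2, which makes selenophosphate, by 0.16. Selenop, the other secreted selenoprotein, differed by 0.14, and Selenok, Selenom and Selenoi by -0.37, -0.27 and 0.24.

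Of 22 genes of the Nrf2 pathway, the transcriptional response to oxidants, 14 were positive and 8 negative, with a median of 0.04. Hmox1, haem oxygenase, a target of this pathway, had 302.4, 379.1 and 418.7 in mutant samples and 924.1, 594.3 and 1341 in controls. All mutant samples lay below all controls, and the log2 difference was -1.26 (SE 0.27, limma adjusted p = 0.571). Without mutant sample 1 it was -1.14 (adjusted p = 0.273). Nfe2l2, which encodes Nrf2, differed by 0.03, its inhibitor Keap1 by -0.05, Nqo1 by 0.29 and Srxn1 by -0.47.

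Of 11 genes listed as partners of Gpx4, 6 were positive and 5 negative, with a median of 0.03. This list holds genes of lipid peroxides, of iron and haem handling and of cystine uptake, among them Hmox1, given above. Tfrc, the transferrin receptor, had 2562, 2922 and 3251 in mutant samples and 1709, 1746 and 2215 in controls. The groups did not overlap, and the log2 difference was 0.62 (SE 0.15, limma adjusted p = 0.818), positive in 3 of 3 tested probe sets. It passed the threshold with array weights, at 0.75 (limma adjusted p = 0.0317), where mutant sample 3, the highest for Tfrc, again had most of the weight, and the unweighted difference without that sample was 0.54 (limma adjusted p = 0.995). Acsl4, which loads membranes with polyunsaturated lipids, differed by 0.39 and Dhodh by 0.12, and the epidermal lipoxygenases Alox12b and Aloxe3 by -0.0021 and -0.09. Of 16 genes of oxidative folding in the endoplasmic reticulum, the compartment of Gpx7 and Gpx8, 8 were positive and 8 negative, with a median of 0.02. Pdia4, Ero1b, Ero1a and Erp44 differed by 0.25, 0.21, 0.19 and 0.15.

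**Figure D4:**
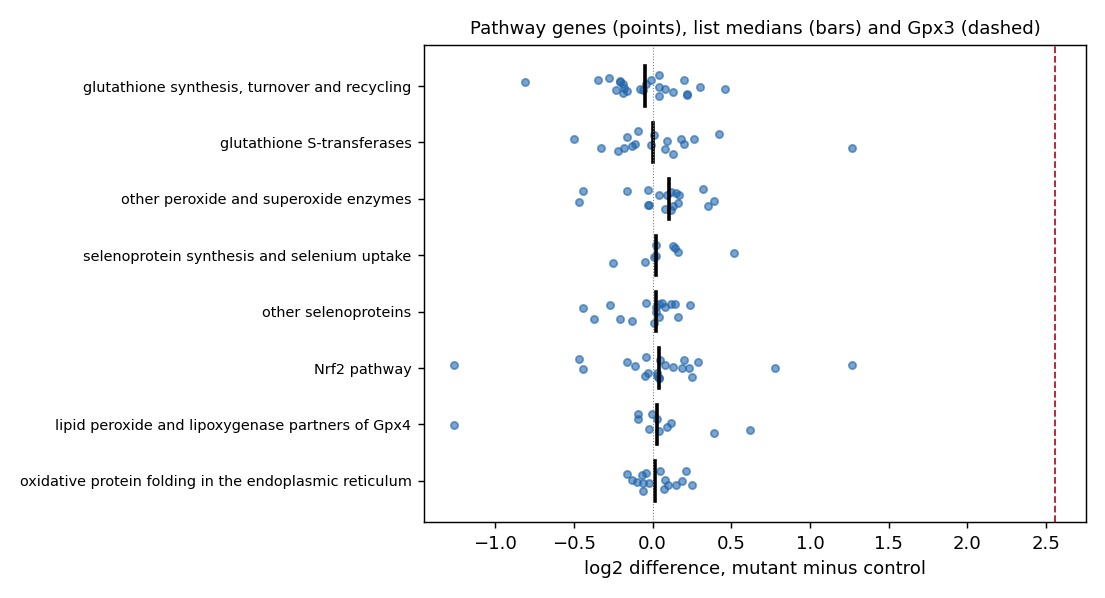
Log2 difference (mutant minus control) of each tested gene in the 8 lists (points, with vertical scatter for legibility), the median of each list (black bar) and Gpx3 (red dashed line at 2.56). List medians lie between -0.05 and 0.10, and no listed gene exceeds 1.27.

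Other cell types that the samples could hold were followed by their markers. For 7 decidual and uterine markers the summed signal was 51599 in mutant sample 1, 687.8 and 620.4 in mutant samples 2 and 3, and 418.9 to 658.1 in controls, with Prl3c1, Wap and Sult1e1 at 72.65 or less on every array. For 5 smooth muscle markers the sums were 7137 to 47075 in mutant and 7884 to 9338 in control samples. The 47075 was mutant sample 1, and the other 2 mutant samples were below all controls. The 4 measured white adipocyte markers summed to 24850 in mutant sample 1, 11878 and 13882 in mutant samples 2 and 3, and 13120 to 15296 in control samples. The 3 brown adipocyte markers summed to 750.5 in mutant sample 1, 303.9 and 272.2 in mutant samples 2 and 3, and 288.0 to 405.3 in controls. Of the 4 kidney proximal tubule markers, Slc34a1, Slc22a6 and Lrp2 stayed at 168.5 or less and Kap reached 5282 in mutant sample 1. The 4 macrophage markers summed to 11974 in mutant sample 1, 5282 and 6918 in mutant samples 2 and 3, and 5667 to 6446 in control samples. Mutant sample 1 thus had the highest sum of the 6 for each of these lists. Its kidney sum came from Kap, while its Lrp2 signal (34.88) was the lowest of the 6. Its brown adipocyte sum came mostly from Cidea (591.9). Its Ucp1 signal (52.09) was below that of control sample 3 (64.05), and its Ppargc1a signal (106.5) was the lowest of the mutants, though above all controls. The 4 intestinal markers summed to at most 92.02 on any array. The 5 keratinocyte markers summed to 101218 to 139901 in mutant and 103891 to 135088 in control samples, the 5 fibroblast markers to 119481 to 123576 and 111951 to 129136, and the 3 measured erythroid markers to 3151 to 5276 and 4261 to 5121. Every one of these sums overlapped between groups, and their part in the Gpx3 values was not tested.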

How the data were processed

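Total RNA of 6 skin samples (Qiagen kit) was biotin-labelled for Affymetrix arrays, per the labels' protocols. The submitters' processing notes name MAS5, with no version. The authors' deposited intensity, on a linear scale, had a mean of 500 on each array after trimming 2% at each end, and the median signal was 110.4 to 131.5. The number of arrays limits the precision. Control probe sets (64) were left out. Signals were taken as log2(signal + 24.48), where 24.48 is the 20th percentile of the signals; this understates differences of dim probe sets. The test was limma's (version 3.58.1, R 4.3.3), with trended eBayes, two-sided, Benjamini-Hochberg over 22518 probe sets and a threshold of 0.05. It was also run on simulated data with normal noise and spreads shuffled among probe sets. That run does not show what share of true differences would be found in these data. Of 45101 probe sets, 34958 had 1 gene symbol, 932 several and 9211 none. Genes were named from those with 1, updated through RefSeq (GRCm38.p6), and lists used each gene's brightest tested probe set. The genes named were the family, the 5 nearest in profile, 2 neighbours on each side, in each list the 4 with the smallest p, and markers. Catalase, Sod1, Sod2, Gclc, Gclm, Gsr, Selenop, Nfe2l2, Keap1, Nqo1, Alox12b and Aloxe3 were added for their known roles after values were seen. Members and lists were chosen with earlier results of these data known. Same-numbered samples deviated with correlations of -0.0525, -0.0735 and 0.115, so numbers were not taken as pairs. Alternatives were other pseudocounts, filters, normalizations, variance models, array weights, an Xist covariate, a replicate block, other probe set choices, a threshold of 0.1 and each sample left out. The count of list genes past the threshold without mutant sample 1 or with array weights was added after seeing the data. Figures used matplotlib 3.10.9.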

Additional observations from a re-analysis of the deposited data

How the results depend on the processing

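Over 17 alternatives the difference of Gpx3 was between 2.01 and 3.01 on the log2 scale. These extremes came from leaving out control sample 1 or 2. Gpx3 was chosen for its rise, and all mutant samples lay above all controls, so leaving 1 out could not turn the sign. Filters and variance models cannot change this difference, so these values are a description and no support. With the Xist covariate the Gpx3 difference was 2.38. Xist was 6732, 67.87 and 115.8 in mutant samples 1, 2 and 3 and 5520, 6313 and 119.9 in control samples 1, 2 and 3. The arrays with high Xist, mutant sample 1 and control samples 1 and 2, were thus unevenly split between the groups. None of the 5 other family probe sets above the filter passed the threshold under any alternative that tested it, and Gpx2, tested only with no filter, had an adjusted p of 1.0 there (limma). Signs turned for 3 of the 5: with array weights the differences were -0.0119 for Gpx8, 0.0104 for the dimmer Gpx4 probe set and 0.0338 for Gpx1, and with 1 sample left out they spanned -0.37 to 0.0503 for that Gpx4 probe set and -0.0866 to 0.0552 for Gpx1. The Gpx2 difference, at background, was 0.00814 and took either sign, from -0.18 to 0.24. Over all probe sets, 106 passed with array weights, 0 with the filter at the 75th percentile, 8 with the replicate block, and 1 to 39 with 1 sample left out (39 without mutant sample 1, 3 without control sample 2, 2 without mutant sample 2). The replicate block is balanced over the groups, so it left the Gpx3 difference at 2.56 by design, and it changed no call in the family.

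List medians that moved were -0.16 (glutathione synthesis) and -0.0863 (S-transferases) with the filter at the 75th percentile, -0.0764 (S-transferases) with the Xist covariate, and for other selenoproteins -0.0368 with array weights and -0.0439 without probe sets ending in _s_at, _x_at or _a_at. With 1 sample left out the median spanned -0.00313 to 0.2 for selenoprotein synthesis and -0.031 to 0.14 for the Nrf2 pathway. Of the 119 pathway genes, 0 passed without mutant sample 1, and Ggct and Tfrc passed with array weights (3.13 for mutant sample 3, 0.257 and 0.56 for the other mutants), as did 0.471% of all probe sets. Signs of single genes turned with array weights for Gstt2 (-0.0379), Hint1 (-0.0747), Pdia4 (-0.0147), Selenom (0.0273), Sephs2 (-0.0771) and Tnip1 (-0.0177), and for Tnip1 with median centring (-0.00653). With 1 sample left out, Hint1 spanned -0.0923 to 0.16, Selenom -0.45 to 0.0508, Sephs2 -0.18 to 0.36 and Tnip1 -0.05 to 0.051. The causes were not tested.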
